A study of Mus musculus with 6 samples.

Results

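The genes described here are 10 of the 32227 in the count tables, and they set or read the choice between the CD4 and CD8 T cell lineages. They were chosen by symbol for their known roles: the coreceptor genes *Cd8a*, *Cd8b1* and *Cd4*, the lineage factors *Zbtb7b*, *Runx3*, *Runx1* and *Gata3*, and *Cd5*, *Cd6* and *Themis*, which tune T cell receptor (TCR) signals. All 10 were found in all 6 libraries.

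The libraries are PIPseq droplet-based single-cell RNA sequencing libraries of CD8+ T cells, 1 for each of 2 genotypes in each of 3 tissues: thymus, spleen and B16-OVA melanoma. Control mice carried *Pdcd1*fl/fl without Cre, and Pdcd1 cKO mice carried the same floxed alleles with the E8I CD8-Cre transgene, which is driven by *Cd8a* regulatory sequence and acts in CD8+ T cells after positive selection. All were adult C57BL/6-background mice, a single mouse per genotype for thymus and for spleen and pooled mice per genotype for the tumors, which were taken on day 12. The thymus and spleen libraries are titled as baseline, so they are not from the mice with tumors. Thymic and splenic cells were isolated with a CD8a+ T cell kit, and tumor cells with CD8 microbeads made for tumor-infiltrating lymphocytes, after dissociation and removal of dead cells. Because each group is 1 library, there was no replicate and no test; every interval below is a 95% interval of counting error only, and differences between mice, isolations and library preparations cannot be told apart from genotype.

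CD8, a dimer of CD8α with CD8β or with itself, binds MHC class I, and CD4 binds MHC class II; both bring the kinase Lck to the TCR. Thymocytes pass from expressing neither coreceptor to both and then to a single one, with ThPOK, the product of *Zbtb7b*, acting for the CD4 lineage and Runx3 for the CD8 lineage, where Runx factors silence *Cd4* and *Zbtb7b*. CD5 and CD6 are scavenger-receptor family proteins that restrain TCR signals, and Themis is needed for positive selection.

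The files held 1067 barcodes for the thymus library labelled Pdcd1fl/fl and 2674 for that labelled Pdcd1 cKO, 6929 and 4963 for spleen, and 457 and 561 for tumor. In every pair of values below, the library labelled Pdcd1fl/fl is given before that labelled Pdcd1 cKO. The filter of the study (at least 500 genes, at least 1000 unique molecular identifiers or UMIs, and at most 20% mitochondrial counts) left 1067 and 2635 cells in thymus, 1478 and 4928 in spleen, and 456 and 561 in tumor. Depth differed widely: the median cell held 4361 and 5417 UMIs in thymus, 1320.5 and 1615 in spleen, and 13809.5 and 9510 in tumor. The filtered libraries summed to 6389966 and 19143524 UMIs in thymus, 2220981 and 8923997 in spleen, and 9380835 and 7924590 in tumor. Only the 2 spleen libraries shared cell barcodes, and they shared 2.

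*Pdcd1*, the gene deleted in the cKO, was not lower for that label when whole libraries were summed. It had 12 and 131 UMIs in thymus, 1 and 104 in spleen, and 717 and 808 in tumor. As CPM, the UMIs of a gene scaled to the same total in every library, this was 1.88 and 6.84 in thymus, 0.450 and 11.7 in spleen, and 76.4 and 102 in tumor. Over whole libraries, that labelled Pdcd1 cKO was the higher in all 3 tissues, with log2 ratios (here and below Pdcd1 cKO relative to Pdcd1fl/fl) of 1.87 (1.01 to 2.85), 4.69 (2.18 to 10.01) and 0.42 (0.27 to 0.56). In tumor cells with T cell markers, a range described below and chosen after seeing the data, the direction turned: *Pdcd1* had 707 and 798 UMIs there, 183 and 152 CPM, a log2 ratio of −0.27 (−0.42 to −0.12). It did not turn in the ranges of the other tissues. In thymus *Pdcd1* had 1 and 24 UMIs in the mature range (2.11, −0.50 to 7.48) and 3 and 10 in the immature range (0.53, −1.43 to 3.03). Both of these intervals include 0. In spleen it had 1 and 66 UMIs in the effector or memory range (3.34, 0.82 to 8.67) and 0 and 38 below it. The spleen ratios rest on 1 UMI for Pdcd1fl/fl. Which part of *Pdcd1* is flanked by loxP sites is not given in the sources used here, so UMIs from transcripts that lack this part cannot be told apart from intact ones. The labels were kept as given, and every direction between genotypes below is a direction between libraries labelled so; an exchange of labels was not tested.

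T cell markers were found in all 6 libraries. All 7 genes of the T cell list (*Cd3d*, *Cd3e*, *Cd3g*, *Cd247*, *Trac*, *Trbc1*, *Trbc2*) had UMIs in each library, together 5874 and 5528 CPM in thymus, 3862 and 4897 in spleen, and 2304 and 4168 in tumor. In tumor the 5 melanoma genes summed to 8636 and 4809 CPM, with *Dct* the most abundant for Pdcd1fl/fl (3296 CPM) and *Pmel* for Pdcd1 cKO (1663 CPM). They were at 4.85 CPM or less in thymus and spleen. The tumor libraries therefore held RNA of melanoma cells, more in that labelled Pdcd1fl/fl, which was the lower of the pair in T cell markers.

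The CD8 chains were abundant in every library, and summed over whole libraries they were higher for Pdcd1 cKO in all 3 tissues. *Cd8a*, which encodes the α chain, had 535 and 2735 UMIs in thymus, 444 and 2269 in spleen, and 1234 and 1744 in tumor. These are 83.7 (76.8 to 91.1) and 143 (138 to 148) CPM in thymus, 199.9 (182 to 219) and 254 (244 to 265) in spleen, and 132 (124 to 139) and 220.1 (209.9 to 231) in tumor. Over whole libraries, the thymus library labelled Pdcd1fl/fl was the lowest of the 6 and the spleen library labelled Pdcd1 cKO the highest. Within each tissue the intervals did not overlap. The order of tissues was not the same within ranges of cells. *Cd8a* was at 313 and 325 CPM in tumor cells with T cell markers, above both spleen libraries, and at 215 and 309 in mature-range thymic cells. The log2 ratio of *Cd8a* was 0.77 (0.64 to 0.91) in thymus, 0.35 (0.20 to 0.50) in spleen and 0.74 (0.64 to 0.85) in tumor. It was 0.05 (−0.05 to 0.16) in tumor cells with T cell markers and −0.01 (−0.36 to 0.35) in thymic cells with immature markers, so the difference was not found in all ranges of cells.

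*Cd8b1*, which encodes the β chain, had 1191 and 5570 UMIs in thymus, 1195 and 7675 in spleen, and 1727 and 3137 in tumor. Its level was 186 (176 to 197) and 291 (283 to 299) CPM in thymus, 538 (508 to 569) and 860.0 (841 to 879.5) in spleen, and 184 (176 to 193) and 396 (382 to 410.0) in tumor. Both spleen libraries were above all others, and the thymus and tumor libraries labelled Pdcd1fl/fl overlapped at the low end. This order is one of whole libraries. *Cd8b1* was at 430 and 582 CPM in tumor cells with T cell markers and at 508 and 642 in mature-range thymic cells. The log2 ratio was 0.64 (0.55 to 0.73) in thymus, 0.68 (0.59 to 0.77) in spleen and 1.10 (1.02 to 1.19) in tumor, so over whole libraries the β chain was past 2-fold in tumor alone. It was short of it in tumor too in cells with a *Cd3* UMI (0.99) and in the T cell range (0.44).

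**Figure D1:**
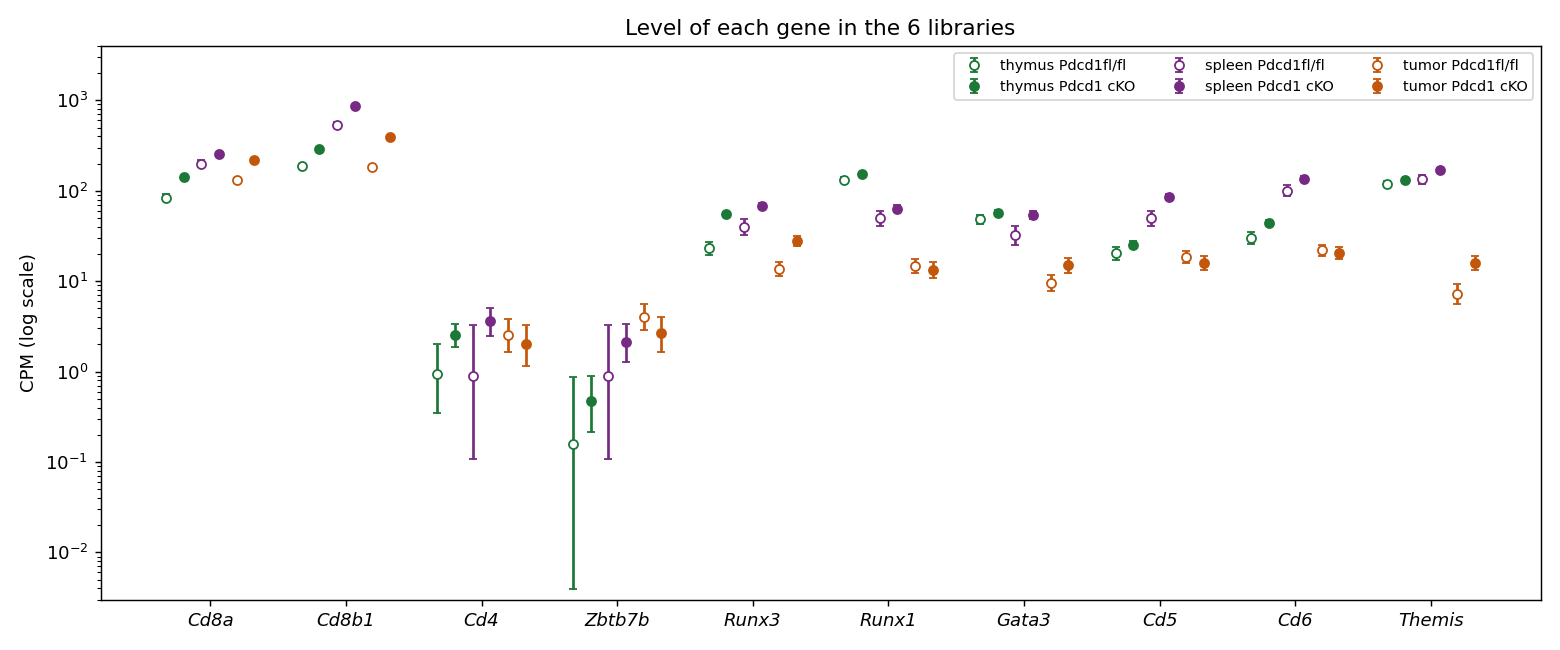
Level of each gene in CPM (log axis) in the 6 libraries, with open points for libraries labelled Pdcd1fl/fl, filled points for Pdcd1 cKO and bars for 95% intervals of counting error. Libraries are to be compared within a gene, not genes with each other; *Cd4* and *Zbtb7b* lie at or below 4.05 CPM in all 6 libraries, and *Runx1*, *Gata3* and *Themis* are lowest in the tumor libraries.

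The ratio of *Cd8a* to *Cd8b1* UMIs does not depend on the library total, and it ordered the tissues differently from the levels. It was 0.449 (0.405 to 0.498) and 0.491 (0.469 to 0.514) in thymus, 0.372 (0.332 to 0.415) and 0.296 (0.282 to 0.310) in spleen, and 0.715 (0.664 to 0.769) and 0.556 (0.524 to 0.590) in tumor. Relative to β, α RNA was thus highest in the tumor libraries and lowest in the spleen libraries, with no overlap of intervals between tissues except between the upper bound in spleen (0.415) and the lower bound in thymus (0.405) of the libraries labelled Pdcd1fl/fl. Under a strict cell filter, which left 81 cells in the spleen library of this label, the ratio was 0.453 there and 0.444 in thymus, so spleen was then not the lower. The library labelled Pdcd1 cKO had the lower ratio in spleen and tumor, without overlap of its interval with that of the other library, while the thymus intervals overlapped. The ratio is one of UMIs of 2 different transcripts and does not give the proportion of αα to αβ dimers.

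The ratio was also taken within ranges of cells set by marker genes, which are described further on. In the tumor cells that carried T cell markers it was 0.728 (0.675 to 0.784) and 0.558 (0.525 to 0.592), close to the whole libraries. Splenic cells with a high sum of *Ccl5*, *Gzmk* and *Gzma*, nearly all of it *Ccl5*, had 0.351 and 0.275. The other splenic cells had 0.382 and 0.322. The intervals overlapped in the library labelled Pdcd1fl/fl and did not in that labelled Pdcd1 cKO. In cells in the melanoma range of the tumor libraries, where 27 and 22 *Cd8a* UMIs were found, it was 0.422 (0.259 to 0.671) and 0.431 (0.249 to 0.724). In thymus it was 0.424 and 0.481 in the mature range and 0.429 and 0.527 in the immature range, and cells with markers of both had 0.626 (0.488 to 0.800) and 0.419 (0.339 to 0.515).

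The chains were also counted per cell. In the deep tumor libraries, 252 and 435 cells held both chains, 21 and 9 held *Cd8a* alone, and 71 and 68 held *Cd8b1* alone. Of the tumor cells with *Cd8a*, 92.3% and 98.0% also had *Cd8b1*. In the shallow spleen libraries this share was 49.8% and 75.3%, and in thymus 67.8% and 85.3%. With every cell thinned at random to 1000 UMIs the 6 shares lay between 34.7% and 57.3%, so cells with *Cd8a* alone cannot be told apart from cells in which *Cd8b1* was missed.

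The purity of CD8 isolation was read as the share of cells with at least 1 UMI of *Cd8a* or *Cd8b1*. Among filtered cells, 589 of 1067 and 1753 of 2635 had one in thymus (55.2% and 66.5%), 863 of 1478 and 3885 of 4928 in spleen (58.4% and 78.8%), and 344 of 456 and 512 of 561 in tumor (75.4% and 91.3%). Thinned to 1000 UMIs per cell, which left out no filtered cell, the shares were 22.6% (20.1 to 25.2) and 34.5% (32.6 to 36.3) in thymus, 45.9% (43.4 to 48.5) and 63.8% (62.5 to 65.2) in spleen, and 30.7% (26.5 to 35.2) and 51.9% (47.6 to 56.1) in tumor. At equal depth and over whole libraries, the spleen had the highest share within each label and the thymus the lowest. The library labelled Pdcd1 cKO was above its partner in every tissue with no overlap. In the tumor T cell range described below, the Pdcd1fl/fl share was 47.9% (42.0 to 53.9), above the 45.9% of spleen with overlapping intervals. The thinned shares count RNA, not surface CD8; a cell without a CD8 UMI may carry the protein.

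Cells that should lack CD8 gave the background of this measure. Tumor cells in the melanoma range (at least 0.2% of UMIs from the melanoma list and less than 0.1% from the T cell list) numbered 141 and 58, and 0.709% (0.0180 to 3.89) and 3.45% (0.420 to 11.9) of them had a CD8 UMI after thinning. Not thinned, 46.1% and 63.8% of these cells had one, at median depths of 31932 and 35962.5 UMIs. The tumor cells in the T cell range, at medians of 11063 and 9133 UMIs, had one in 95.5% and 97.6% of cells not thinned and in 47.9% (42.0 to 53.9) and 60.6% (56.0 to 65.1) thinned. An unthinned share of the whole tumor library therefore includes melanoma-range cells in which CD8 UMIs were at background, and the T cell range stood far above this background at equal depth.

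**Figure D2:**
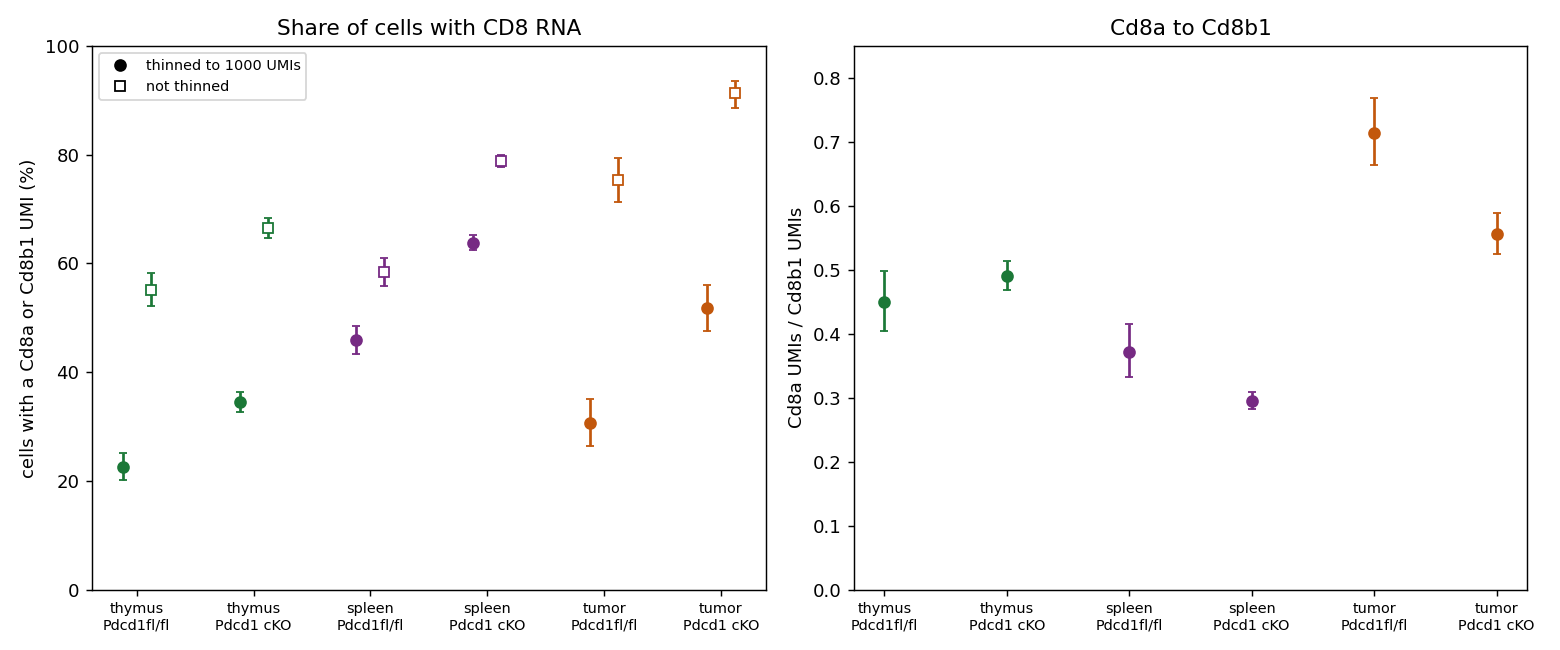
Share of filtered cells with a *Cd8a* or *Cd8b1* UMI (left, %, circles thinned to 1000 UMIs per cell, squares not thinned) and ratio of *Cd8a* to *Cd8b1* UMIs (right) in the 6 libraries, with 95% intervals of counting error. The thinned share is highest in the spleen library labelled Pdcd1 cKO (63.8%) and lowest in the thymus library labelled Pdcd1fl/fl (22.6%), and the ratio is highest in the tumor libraries (0.715 and 0.556).

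Depth within a library changed the share most where cells were shallow. With the cells of each library ordered by UMIs into 4 groups of near equal size, it went from 66.3% in the shallowest group (median 1141 UMIs) to 90.6% in the deepest (median 2488) in the spleen library labelled Pdcd1 cKO, and in the spleen library labelled Pdcd1fl/fl from 48.5% to 74.6%. In the thymus library labelled Pdcd1fl/fl the shallowest and deepest groups had 55.1% and 57.3%, at medians of 2965 and 9905 UMIs. The other libraries did not rise throughout. The share went from 72.4% in the third group to 64.0% in the deepest in the thymus library labelled Pdcd1 cKO, from 97.9% to 86.5% in the tumor library of that label, and from 78.9% to 67.5% in the other tumor library.

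The cells with no CD8 UMI carried other markers in a tissue-dependent way. In thymus nearly all were T lineage cells by RNA: 478 of 478 and 880 of 882 had at least 3 UMIs of the T cell list, and 57.5% in both libraries had at least 3 of the immature thymocyte list (*Dntt*, *Rag1*, *Rag2*, *Ptcra*, *Il2ra*), against 38.9% and 21.4% of cells with a CD8 UMI. In spleen 77.4% and 91.2% had at least 3 UMIs of the T cell list, no macrophage list reached 3 UMIs in any of them, and *C1qa* and *C1qc* were at 0 in both libraries. In tumor 85.7% and 55.1% had at least 3 melanoma UMIs, as did 62.8% and 32.4% of the cells with a CD8 UMI. Of the same tumor cells without a CD8 UMI, 62.5% and 81.6% had at least 3 UMIs of the T cell list, and 19.6% and 34.7% of the macrophage list. The dendritic cell list, nearly all *H2-Aa*, an MHC class II gene (1892 of 1923 and 3492 of 3513 UMIs), reached 3 UMIs in 40.2% and 61.2% of them, against 10.5% and 9.96% of the tumor cells with a CD8 UMI. Splenic B cell RNA differed between the labels, with the B cell list at 189 and 2053 CPM, led by *Ighm* (94.1 CPM) in the library labelled Pdcd1fl/fl, where *Ms4a1* was at 0, and by *Igkc* (1517 CPM) in the other. In the spleen library labelled Pdcd1 cKO, at least 3 UMIs of that list were found in 12.2% of cells without a CD8 UMI. The share was 14.1% in cells with one. The granulocyte progenitor list was also higher for Pdcd1 cKO in spleen (1.80 and 75.6 CPM), as was the erythroid list (0.901 and 22.5 CPM). The part of these lists in the spleen ratios was not tested.

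CD4 RNA was close to absent. *Cd4* had 6 and 49 UMIs in thymus, 2 and 32 in spleen, and 24 and 16 in tumor, which is 0.939 (0.345 to 2.04) and 2.56 (1.89 to 3.38) CPM, 0.901 (0.109 to 3.25) and 3.59 (2.45 to 5.06) CPM, and 2.56 (1.64 to 3.81) and 2.02 (1.15 to 3.28) CPM. No library stood apart: each overlapped its neighbour in the order of levels. Cells with *Cd4* and no CD8 UMI numbered 1 and 6 in thymus, 1 and 8 in spleen, and 8 and 4 in tumor, at most 1.75% (0.760 to 3.43) of a library. Cells with both *Cd4* and CD8 UMIs numbered 4 and 36, 1 and 19, and 7 and 10. The most *Cd4* UMIs in any cell was 4. In tumor *Cd4* was at 4.67 and 2.10 CPM in the T cell range and at 0.949 and 2.19 CPM in the melanoma range, a fold of 4.92 (1.76 to 17.0) and 0.958 (0.307 to 3.52), so it was above this background for Pdcd1fl/fl and cannot be told apart from it for Pdcd1 cKO.

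The log2 ratio of *Cd4* was 1.45 (0.22 to 2.96) in thymus, 1.99 (0.02 to 5.10) in spleen and −0.34 (−1.35 to 0.63) in tumor, each resting on few UMIs. *Foxp3*, which marks regulatory CD4+ T cells, was found with *Cd4* in 4 and 2 tumor cells and in no cell of the thymus or spleen libraries; it was found with CD8 UMIs in 3 and 2 cells in thymus, 0 and 7 in spleen, and 6 and 8 in tumor. *Cd40lg*, induced mainly on CD4+ T cells, was at 0 in the spleen library labelled Pdcd1fl/fl and in the tumor library labelled Pdcd1 cKO.

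*Zbtb7b*, the gene of the CD4-lineage factor ThPOK, was as scarce. It had 1 and 9 UMIs in thymus, 2 and 19 in spleen, and 38 and 21 in tumor, or 0.156 (0.00396 to 0.872) and 0.470 (0.215 to 0.892) CPM, 0.901 (0.109 to 3.25) and 2.13 (1.28 to 3.32) CPM, and 4.05 (2.87 to 5.56) and 2.65 (1.64 to 4.05) CPM. The tumor libraries were above the thymus libraries without overlap of intervals. Most of the tumor UMIs were outside the T cell range: 29 of 38 and 12 of 21 lay in melanoma-range cells, where the level was 5.30-fold (1.86 to 20.8) and 3.94-fold (1.43 to 11.8) that of the T cell range. Of the cells with *Zbtb7b*, 3 and 1 in tumor and none in thymus and spleen also had *Cd4*. Its log2 ratios, 1.59 (−1.26 to 7.04), 1.24 (−0.81 to 4.39) and −0.61 (−1.46 to 0.19), all had intervals that include 0. The direction turned in spleen without the cell filter (−0.35, from 16 and 19 UMIs) and in the T cell range of the tumor (0.36, from 4 and 7 UMIs).

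*Runx3*, the gene of the CD8-lineage factor, was readily detected. It had 148 and 1060 UMIs in thymus, 89 and 607 in spleen, and 127 and 222 in tumor. Its level was 23.2 (19.6 to 27.2) and 55.4 (52.1 to 58.8) CPM in thymus, 40.1 (32.2 to 49.3) and 68.0 (62.7 to 73.7) in spleen, and 13.5 (11.3 to 16.1) and 28.0 (24.4 to 32.0) in tumor. In each tissue the library labelled Pdcd1 cKO was higher with no overlap, and the tissues themselves overlapped in range. The log2 ratio was 1.26 (1.01 to 1.52) in thymus, 0.76 (0.44 to 1.10) in spleen and 1.05 (0.73 to 1.38) in tumor, where it was 0.34 (0.01 to 0.68) in the T cell range, short of 2-fold.

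*Runx1*, which acts earlier in thymocytes and also represses *Cd4* there, differed more between tissues than between the labels over whole libraries. It had 850 and 2928 UMIs in thymus, 110 and 567 in spleen, and 139 and 106 in tumor. The levels were 133 (124 to 142) and 153 (147 to 159) CPM in thymus, 49.5 (40.7 to 59.7) and 63.5 (58.4 to 69.0) in spleen, and 14.8 (12.5 to 17.5) and 13.4 (11.0 to 16.2) in tumor. Thymus was highest and tumor lowest, with no overlap between tissues. Its log2 ratios were 0.20 (0.09 to 0.31), 0.36 (0.06 to 0.67) and −0.15 (−0.53 to 0.23), and the tumor value was 0.08 when scaled by the median of gene ratios. In thymus it was 0.05 under a strict cell filter and −0.22 (−0.52 to 0.09) in the mature range.

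*Gata3*, needed for early T cell development and for the CD4 lineage, had 311 and 1099 UMIs in thymus, 72 and 482 in spleen, and 90 and 119 in tumor. This was 48.7 (43.4 to 54.4) and 57.4 (54.1 to 60.9) CPM in thymus, 32.4 (25.4 to 40.8) and 54.0 (49.3 to 59.1) in spleen, and 9.59 (7.71 to 11.8) and 15.0 (12.4 to 18.0) in tumor. Both tumor libraries were below all others, while thymus and spleen overlapped. The log2 ratio was 0.24 (0.06 to 0.42), 0.74 (0.38 to 1.11) and 0.65 (0.24 to 1.06) in the 3 tissues; it was 0.52 in the mature range of the thymus and −0.02 (−0.44 to 0.41) in the T cell range of the tumor.

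*Cd5*, whose product restrains TCR signals, had 130 and 486 UMIs in thymus, 111 and 767 in spleen, and 174 and 126 in tumor. The levels were 20.3 (17.0 to 24.2) and 25.4 (23.2 to 27.7) CPM in thymus, 50.0 (41.1 to 60.2) and 85.9 (79.97 to 92.3) in spleen, and 18.5 (15.9 to 21.5) and 15.9 (13.2 to 18.9) in tumor. Over whole libraries spleen stood above the other tissues, and the thymus library labelled Pdcd1fl/fl overlapped both tumor libraries. *Cd5* was at 42.0 and 22.9 CPM in the T cell range of the tumor and at 44.7 and 47.4 in the mature range of the thymus. The log2 ratio was 0.32 (0.04 to 0.61) in thymus, 0.78 (0.49 to 1.08) in spleen and −0.22 (−0.56 to 0.12) in tumor, where it was 0.00 when scaled by the median of gene ratios and −0.88 (−1.23 to −0.53) in the T cell range.

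*Cd6*, a neighbor and relative of *Cd5*, followed the same order of tissues. It had 193 and 851 UMIs in thymus, 223 and 1215 in spleen, and 206 and 162 in tumor, or 30.2 (26.1 to 34.8) and 44.5 (41.5 to 47.5) CPM, 100.4 (87.7 to 114) and 136 (129 to 144) CPM, and 22.0 (19.1 to 25.2) and 20.4 (17.4 to 23.8) CPM. Over whole libraries, both spleen libraries were above both thymus libraries, and these were above both tumor libraries. In the T cell range of the tumor *Cd6* was at 51.4 and 28.6 CPM, for Pdcd1fl/fl above both whole thymus libraries. In the mature range of the thymus it was at 75.1 and 78.0 CPM. The log2 ratio was 0.56 (0.33 to 0.79), 0.44 (0.23 to 0.65) and −0.10 (−0.41 to 0.20); in tumor it was 0.12 when scaled by the median of gene ratios and −0.85 (−1.16 to −0.53) in the T cell range.

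*Themis*, which acts downstream of the TCR at positive selection, had 759 and 2525 UMIs in thymus, 297 and 1512 in spleen, and 68 and 125 in tumor. Its level was 119 (110.5 to 128) and 132 (127 to 137) CPM in thymus, 134 (119 to 149.8) and 169 (161 to 178) in spleen, and 7.25 (5.63 to 9.19) and 15.8 (13.1 to 18.8) in tumor. Tumor was far below both lymphoid organs, which overlapped each other. The log2 ratio was 0.15 (0.03 to 0.27) in thymus, 0.34 (0.16 to 0.53) in spleen and 1.12 (0.68 to 1.57) in tumor. It turned to −0.49 in the mature range of the thymus and to −0.02 in spleen under a strict cell filter, and was 0.52 in the T cell range of the tumor.

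Over whole libraries, the 10 genes were set against genes at large. In thymus all 10 had log2 ratios above 0, with a median of 0.60, against a median of −0.07 over 10380 genes with at least 100 UMIs, of which 44.0% were above 0. In spleen all 10 were above 0, with a median of 0.71 against 0.17 over 7843 genes (66.6% above 0). In tumor 5 were above and 5 below 0, with a median of 0.27 against −0.22 over 9035 genes (32.5% above 0). In the T cell range the tumor median was 0.02, and in the mature range the thymus median was 0.34, with *Runx1* (−0.22) and *Themis* (−0.49) below 0. These medians include *Cd4* and *Zbtb7b*, which are below 100 UMIs. Over the 8 members with at least 100 UMIs the medians were 0.44, 0.56 and 0.69, which is 0.51, 0.38 and 0.92 above that of all such genes.

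The 8 members with at least 100 UMIs in each tissue (all but *Cd4* and *Zbtb7b*) were set against the share of all such genes past 2-fold. In thymus 1 of 8, *Runx3*, was at least 2-fold higher in the library labelled Pdcd1 cKO, where 3.63% of genes were, and none was at least 2-fold lower, where 4.06% were.

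In spleen none of the 8 was past 2-fold in either direction, where 5.07% of genes were higher and 0.676% lower. In tumor 3 of 8 were at least 2-fold higher in the library labelled Pdcd1 cKO (*Cd8b1*, *Runx3* and *Themis*), against 3.94% of genes, and none of the 8 was lower, against 7.69%. The tumor libraries differed in melanoma RNA, as given above, and in the T cell range none of the 8 was past 2-fold higher, against 3.94% of 5002 genes.

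**Figure D3:**
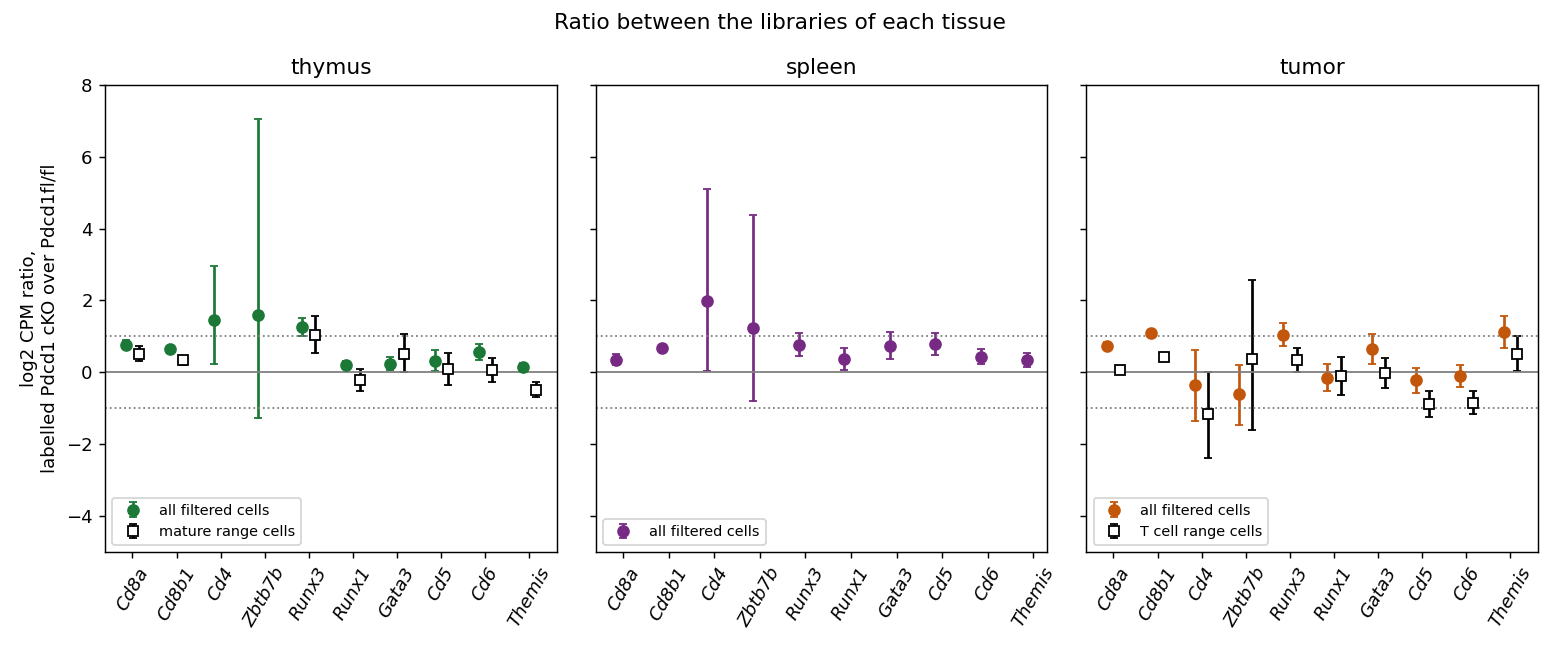
Log2 fold difference in CPM (label Pdcd1 cKO relative to label Pdcd1fl/fl) for each gene in each tissue, with 95% intervals of counting error, a solid line at 0 and dotted lines at 2-fold. Filled points are all filtered cells and open squares the mature range (thymus) or T cell range (tumor), with genes at 0 UMIs in a library left out; *Runx3* in thymus stays near 2-fold in both, while the tumor squares of *Cd5* and *Cd6* lie below 0.

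The levels were also compared between tissues. A tissue was called higher where both of its libraries were at least 2-fold above both of the other tissue. By this rule 5 of 8 were higher in spleen than in tumor, against 22.4% of 11230 genes: *Themis* (8.48-fold between the nearest libraries), *Cd6* (4.57), *Runx1* (3.34), *Cd5* (2.69) and *Gata3* (2.16). With only the tumor cells in the T cell range described below, which was chosen after seeing the data, 2 of 8 were called, against 35.0% of 9348 genes. Scaled by the median of gene ratios, 4 of 8 were called in spleen over tumor, without *Gata3*, against 16.5% of genes. In thymus over tumor 3 of 8 were higher, against 26.2% of 12317 genes: *Runx1* (8.98-fold), *Themis* (7.53) and *Gata3* (3.24). *Gata3* was not called with mature-range thymus and T-range tumor cells (2 of 8, against 37.3% of 8510 genes) or when scaled by the median of gene ratios (2 of 8, against 14.6%). None of the 8 was called higher in tumor than in thymus or spleen, where 12.2% and 16.8% of genes were. *Zbtb7b*, too scarce for this count, was 5.64-fold higher in tumor than thymus between the nearest libraries. In the T cell range of the tumor *Zbtb7b* was at 1.04 and 1.33 CPM, against 0.156 and 0.470 CPM in thymus. In the mature range of the thymus it was at 0 and 0.967 CPM. Between thymus and spleen 1 of 8 was called in each direction, *Cd6* higher in spleen (2.26-fold, against 4.57% of 11325 genes) and *Runx1* higher in thymus (2.09-fold, against 10.2%). These calls depended on the processing. Neither gene was called with mature-range thymic cells, where 1.91% of genes were higher in spleen and 2.06% in thymus. Under a strict cell filter neither was called, and *Cd5* was called in spleen instead (1 of 8, against 4.87% of genes). Scaled by the median of gene ratios, *Cd8b1*, *Cd5* and *Cd6* were called in spleen (3 of 8, against 6.37%). *Runx1* was then not called in thymus, where 8.44% of genes were. With the main settings, neither CD8 chain nor *Runx3* was called in any tissue pair. With the libraries of either label alone, 7 of 8 were called in spleen over tumor, *Cd8b1* and *Runx3* among them. The share of all genes was 25.2% for Pdcd1fl/fl and 37.5% for Pdcd1 cKO. *Cd8b1* was then also called in spleen over thymus for either label, and *Cd8a* for Pdcd1fl/fl. In that pair 4 of 8 were called for Pdcd1fl/fl, against 7.95% of genes, and 3 of 8 for Pdcd1 cKO, against 9.62%. The tissues also differ in isolation method, depth, baseline against tumor-bearing mice and the melanoma RNA of the tumor libraries, which cannot be told apart from tissue here.

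Thymic cells were split by marker UMIs, with limits chosen after the data were seen. Cells with at least 3 UMIs of the mature list (among them *Ccr7*, *S1pr1* and *Klf2*) and fewer than 3 of the immature list formed the mature range, 258 and 1080 cells (24.2% and 41.0%). The reverse formed the immature range, 335 and 564 cells (31.4% and 21.4%), and 169 and 319 cells were in both ranges. Many cells were close to a limit, with 2 or 3 UMIs of a list: 433 (40.6%) and 830 (31.5%). So the thymus library labelled Pdcd1 cKO held a larger share of mature-range and a smaller share of immature-range cells; the mature list summed to 482 and 709 CPM with *Ccr7* leading, and the immature list to 621 and 518 CPM with *Dntt* leading.

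The CD8 chains, *Cd5* and *Cd6* were higher in the mature range in both libraries. In the immature range *Cd8a* was at 41.4 and 41.2 CPM and in the mature range at 215 and 309, which is 5.19-fold (4.09 to 6.65) and 7.50-fold (6.53 to 8.66) higher. *Cd8b1* went from 96.6 and 78.0 CPM to 508 and 642, 5.26-fold and 8.22-fold higher. *Cd5* was 3.48-fold (2.17 to 5.68) and 7.10-fold (5.01 to 10.3) higher in the mature range, and *Cd6* 7.32-fold (4.60 to 12.0) and 5.54-fold (4.34 to 7.15). *Runx3* (1.88-fold and 1.94-fold) and *Themis* (2.39-fold and 1.30-fold) differed less. *Runx1* and *Gata3* went the other way, with mature over immature ratios of 0.817 (0.647 to 1.02) and 0.450 (0.404 to 0.502) for *Runx1* and 0.629 (0.416 to 0.930) and 0.790 (0.668 to 0.935) for *Gata3*.

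The share of thinned cells with a CD8 UMI split in the same way. It was 44.6% (38.4 to 50.9) and 57.7% (54.7 to 60.7) in the mature range, against 10.7% (7.64 to 14.6) and 12.1% (9.49 to 15.0) in the immature range. Cycling differed between the libraries within these ranges: at least 3 UMIs of the cycling list, led by *Top2a*, were found in 26.7% and 7.22% of mature-range and in 70.1% and 45.4% of immature-range cells. Within the mature range the log2 ratio between the libraries was 1.04 (0.54 to 1.57) for *Runx3*, 0.52 (0.33 to 0.72) for *Cd8a* and 0.34 (0.21 to 0.46) for *Cd8b1*. *Runx3* was higher in the library labelled Pdcd1 cKO in the immature range too, at 0.99 (0.49 to 1.52). By contrast *Themis* was at −0.49 (−0.70 to −0.28) in the mature range and 0.39 (0.16 to 0.63) in the immature range, *Runx1* at −0.22 (−0.52 to 0.09) and 0.64 (0.44 to 0.84), and *Cd5* at 0.09 (−0.35 to 0.55) and −0.94 (−1.68 to −0.19). For the CD8 chains the Pdcd1 cKO label had the higher level in the mature range and in cells with neither set of markers (1.14 for *Cd8a* and 0.68 for *Cd8b1*), but not in the immature range (−0.01 and −0.31) or in cells with both sets (−1.17 and −0.59). *Cd4* had 0 and 28 UMIs in the mature range; with the 0 set to a floor of 3 UMIs the fold is 1.68, and the log2 ratio has a lower limit of 0.36.

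**Figure D4:**
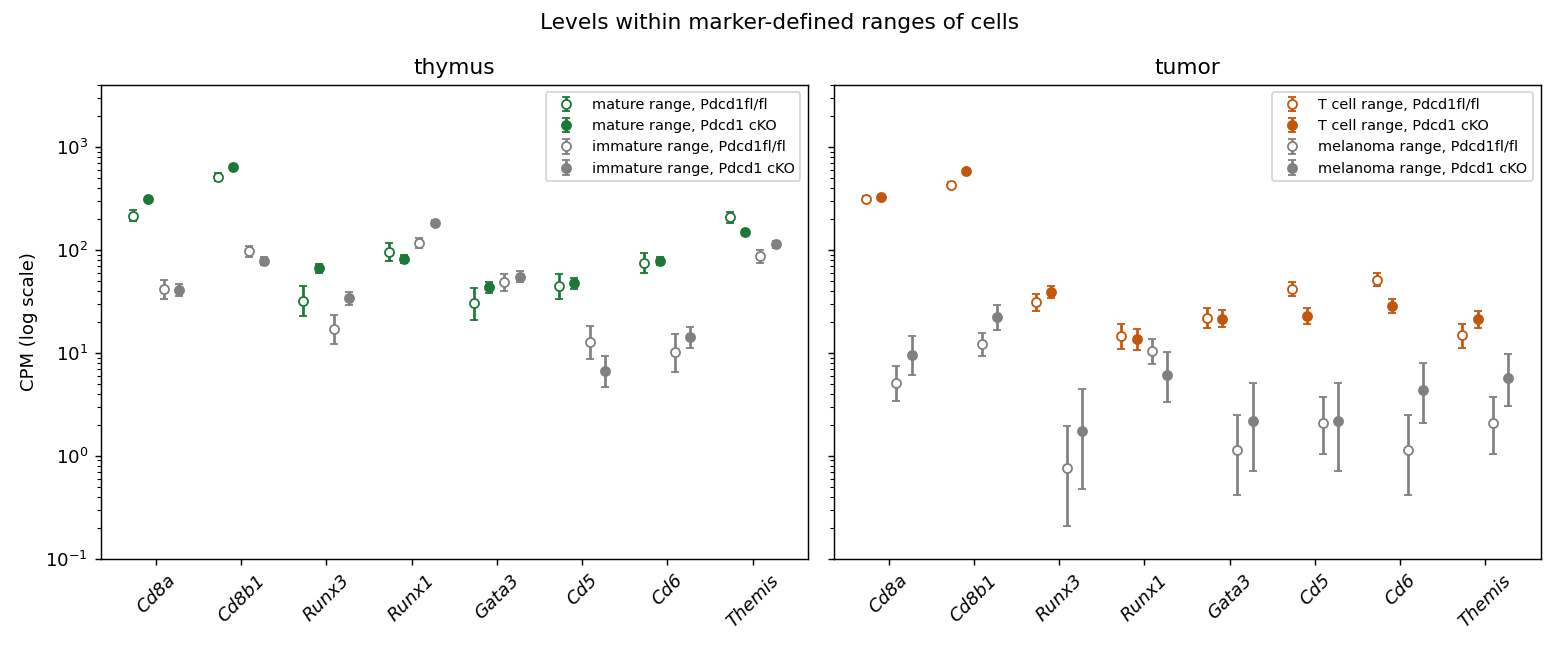
Level in CPM (log axis) of the 8 genes with at least 100 UMIs per tissue, in thymus in the mature (green) and immature (grey) ranges and in tumor in the T cell (orange) and melanoma (grey) ranges, open points for libraries labelled Pdcd1fl/fl, filled for Pdcd1 cKO, bars for 95% intervals of counting error. *Cd8a* and *Cd8b1* are over 5-fold higher in the mature than the immature range, and *Runx1* in the T cell range is within 2.21-fold of its level in the melanoma range.

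In tumor, the T cell range (at least 0.1% of UMIs from the T cell list and below the limits of the melanoma and macrophage lists) held 288 and 467 cells (63.2% and 83.2%), with limits chosen after the data were seen; 6 and 13 cells lay within 1.5-fold of a limit. The members were largely T cell genes there. *Cd8a* was 61.1-fold (41.8 to 93.1) and 33.7-fold (22.2 to 54.0) higher in the T cell than the melanoma range, *Cd8b1* 35.4-fold and 26.1-fold, *Runx3* 40.7-fold and 22.3-fold, *Cd6* 45.1-fold and 6.53-fold, *Cd5* 20.1-fold and 10.4-fold, *Gata3* 19.1-fold and 9.84-fold, and *Themis* 7.08-fold and 3.72-fold. *Runx1* was the exception among the 8, at 14.5 and 13.5 CPM in the T cell range and 10.4 and 6.12 CPM in the melanoma range. Its ratio was 1.39 (0.942 to 2.06) and 2.21 (1.23 to 4.24). In the 21 and 25 cells of the macrophage range *Runx1* was at 139.7 (92.8 to 202) and 58.8 (34.3 to 94.2) CPM, so part of the tumor *Runx1* UMIs (28 of 139 and 17 of 106) lay there.

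Within the T cell range the tumor ratios changed. *Cd8a* was at 313 and 325 CPM, a log2 ratio of 0.05 (−0.05 to 0.16), and *Cd8b1* at 430.0 and 582 CPM, a ratio of 0.44 (0.35 to 0.52). *Cd5* was at 42.0 and 22.9 CPM and *Cd6* at 51.4 and 28.6 CPM, with log2 ratios of −0.88 (−1.23 to −0.53) and −0.85 (−1.16 to −0.53). So among tumor cells with T cell markers, *Cd8a* did not differ beyond counting error, *Cd8b1* was higher, and both scavenger-receptor genes were lower in the library labelled Pdcd1 cKO. *Runx3* was at 0.34 (0.01 to 0.68), *Themis* at 0.52 (0.04 to 1.00), *Gata3* at −0.02 (−0.44 to 0.41) and *Runx1* at −0.10 (−0.63 to 0.43). *Cd4*, with 18 and 11 UMIs, was at −1.16 (−2.39 to 0.00). Markers of T cell state also differed between the tumor libraries, counted over all tumor cells with a CD8 UMI and not the T cell range alone. Their part in these ratios was not tested. Of the tumor cells with a CD8 UMI, 40.7% and 10.5% had at least 3 UMIs of the list of mature thymocytes or naive T cells, led by *Ccr7*, and 58.7% and 93.0% had at least 3 of the effector or memory list, led by *Ccl5*.

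In spleen, cells with at least 0.5% of UMIs from *Ccl5*, *Gzmk* and *Gzma* formed an effector or memory range, of 481 and 2553 cells (32.5% and 51.8%). This limit too was chosen after the data were seen, and 359 (24.3%) and 1025 (20.8%) cells lay within 1.5-fold of it. The list summed to 3942 and 8096 CPM, nearly all of it *Ccl5* (3919 and 7985 CPM). Across this range *Cd8a* was at 0.986-fold and 0.978-fold of its level in the other cells, *Cd8b1* at 1.07-fold and 1.15-fold, and *Runx3* at 1.48-fold (0.942 to 2.30) and 1.13-fold (0.957 to 1.33). *Themis* was lower in the effector or memory range in both libraries, at 0.779-fold (0.596 to 1.01) and 0.780-fold (0.704 to 0.864), and *Gata3* higher, at 1.66-fold (1.01 to 2.71) and 1.26-fold (1.05 to 1.52). *Cd5* was at 1.12-fold (0.741 to 1.68) and 1.23-fold (1.07 to 1.43), and *Runx1* at 0.890-fold (0.573 to 1.35) and 0.798-fold (0.674 to 0.944). Within the range the log2 ratio between the libraries was 0.35 for *Cd8a*, 0.70 for *Cd8b1* and 0.81 for *Cd5*, against 0.36, 0.60 and 0.67 in the cells below it. *Runx3* was at 0.49 (0.00 to 1.02) and *Gata3* at 0.43 (−0.10 to 1.01) within it, with intervals that reach 0, against 0.88 (0.45 to 1.34) and 0.83 (0.34 to 1.36) below it.

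The genes closest in pattern over the 6 libraries were named by the root mean square distance of centered log2(CPM + 1), among 8011 genes with a mean of at least 10 CPM. For *Cd8b1* they were *Trac* (0.128), the TCR α constant gene, *Cd2* (0.135), an adhesion receptor of T cells, and *Ppp1r18* (0.159). For *Cd8a* they were *Evi2* (0.143), *Cd226* (0.158), an activating receptor, and *Nmb* (0.164). Each CD8 chain was some way down the list of the other, at a distance of 0.406: *Cd8b1* ranked 177 from *Cd8a*, and *Cd8a* ranked 65 from *Cd8b1*.

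Other lineage regulators had medians nearer 0 than the members. Of 22 (among them *Tox*, *Tcf7*, *Lef1*, *Bcl11b* and *Satb1*), 2, 2 and 1 were at least 2-fold higher in the library labelled Pdcd1 cKO in thymus, spleen and tumor, and 0, 0 and 1 lower, with median log2 ratios of 0.10, 0.15 and 0.12. Among those with at least 100 UMIs, 2 of 22, 2 of 22 and 0 of 20 were higher, to be read against the 3.63%, 5.07% and 3.94% of all such genes, and 0, 0 and 1 lower, against 4.06%, 0.676% and 7.69%. *Id2*, an inhibitor of E proteins, was the highest of them in thymus (389 and 2868 UMIs, 1.30) and spleen (256 and 2080 UMIs, 1.02), and *Bcl11b* in tumor (23 and 56 UMIs, 1.53). The lowest were *Tcf7* in thymus (2338 and 4441 UMIs, −0.66), *Myb* in spleen (68 and 189 UMIs, −0.53) and *Smarca4* in tumor (251 and 105 UMIs, −1.01).

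Of 18 partners in TCR tuning, such as *Lck*, *Ptpn6* and *Grb2*, 0, 1 and 3 were at least 2-fold higher and 1, 1 and 0 lower, with medians of 0.22, 0.41 and 0.49. With at least 100 UMIs, the counts were 0 of 18, 1 of 17 and 3 of 17 higher and 1, 0 and 0 lower, to be read against the same shares. The highest was *Ptpn22*, a phosphatase, in thymus (0.72), *Alcam*, the ligand of CD6, in spleen (1.03, from 11 and 90 UMIs) and *Lat*, an adaptor of the TCR, in tumor (1.22, from 818 and 1613 UMIs). *Themis2*, the relative of *Themis* found mainly in B cells and myeloid cells, was the lowest in all 3 tissues (−1.16, −1.06 and −0.17). It had 109 and 146 UMIs in thymus, 14 and 27 in spleen, and 76 and 57 in tumor. The spleen interval was −2.04 to −0.01, and the tumor interval (−0.69 to 0.34) includes 0.

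In the genome, 4 of the members lie in pairs of neighbors on the same strand. In GRCm39, *Cd8b1* (chr6:71299772-71315087) and *Cd8a* (chr6:71350411-71356157) are on the plus strand, 35323 bases apart. *Cd5* (chr19:10694480-10716366) and *Cd6* (chr19:10766705-10807422) are on the minus strand, 50338 bases apart. *Cd4* (chr6:124841655-124874758, minus) is on the chromosome of the CD8 genes, and the others are apart: *Zbtb7b* (chr3:89284942-89302144, minus), *Runx3* (chr4:134847952-134905301, plus), *Runx1* (chr16:92398354-92623037, minus), *Gata3* (chr2:9861889-9894845, minus) and *Themis* (chr10:28544356-28759814, plus).

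Some members share sequence with genes on the other strand, and the sources used here do not say whether counting used strand. *Zbtb7b*, with 90 UMIs over the 6 libraries, overlaps the exons of *Gm15417*, which had 244. *Cd6*, with 2850, overlaps *A430093F15Rik* (490 UMIs), and *Gata3*, with 2173, overlaps *Gm13256* (249 UMIs). For these 3 members, reads of the gene and of its partner cannot be told apart without strand, and their values are uncertain to that extent.

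Promoter sequences were matched for 7 of the 10 genes, from RefSeq on build GRCm38.p6, which differs from the build of the counts. They are shown for the CD8 α chain and for the lineage factors of each side because Runx proteins are known to act at coreceptor and *Zbtb7b* loci. The letters TGTGGT, the core of the sequence that Runx proteins bind, and their reverse complement ACCACA were searched on both strands in the 250 bases before each start, and matches are in capitals. They were found in 4614 of 32851 such windows (14.0%) and in 2 of the 11 windows of the members: the upstream start of *Runx3* had 2 matches, the downstream start of *Zbtb7b* had 1 and *Cd8a* none. *Runx3* and *Zbtb7b* each have 2 windows, and the other window of each, not shown, had no match. The windows are chr6:71373177-71373426 (plus) for *Cd8a*, chr4:135120395-135120644 (plus) for *Runx3* and chr3:89387672-89387921 (minus) for *Zbtb7b*. A match is a description of the letters, and no match says only that they are not in this window.
Cd8a: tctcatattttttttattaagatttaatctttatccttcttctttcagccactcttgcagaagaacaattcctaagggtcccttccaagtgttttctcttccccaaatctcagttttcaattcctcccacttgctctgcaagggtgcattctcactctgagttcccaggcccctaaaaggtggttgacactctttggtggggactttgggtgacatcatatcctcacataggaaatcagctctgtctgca
Runx3: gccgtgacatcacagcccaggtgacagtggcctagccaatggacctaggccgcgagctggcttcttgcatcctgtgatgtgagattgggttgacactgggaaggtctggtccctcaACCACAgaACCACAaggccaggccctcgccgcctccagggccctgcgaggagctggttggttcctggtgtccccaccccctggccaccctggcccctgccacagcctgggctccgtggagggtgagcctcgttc
Zbtb7b: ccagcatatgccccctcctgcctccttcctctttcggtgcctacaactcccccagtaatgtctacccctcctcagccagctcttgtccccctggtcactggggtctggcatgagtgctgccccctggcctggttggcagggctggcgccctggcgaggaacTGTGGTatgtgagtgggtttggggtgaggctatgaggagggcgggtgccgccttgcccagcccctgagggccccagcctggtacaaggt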

How the data were processed

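Raw UMI counts of 6 libraries were used as deposited. The authors made these counts per gene and cell with the PIPseq pipeline on GRCm39 and analysed them in Seurat 4.3.0; the annotation release, the handling of introns and the strand of counting are not given in the sources used here. Cells were kept by the filter of the study. Counts were summed per library and divided by the library total (CPM); intervals are exact Poisson for CPM, exact conditional binomial for ratios and Clopper-Pearson for shares, all at 95%. Shares were compared after thinning each cell to 1000 UMIs with a fixed seed. With 1 library per group no test was made. A gene with 0 UMIs was set to a floor of 3 UMIs per library. No doublet caller was run and no doublets were removed. The limits of the T cell range and of another range were both reached by 1 and 6 tumor cells, which is not a count of doublets. At least 3 melanoma UMIs were found in 62.8% and 32.4% of the tumor cells with a CD8 UMI. Cells with *Cd4* and CD8 UMIs in tumor had medians of 16587 and 14273 UMIs.

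The members and gene lists were chosen with earlier results of these data known. Named genes are all 10 members, *Pdcd1*, the markers that lead or are at 0 in a list, the highest and lowest of each further list, and the 3 nearest genes of each CD8 chain. Some genes of the lists are not reported here. The alternatives were no cell filter, a strict one (from 1000 genes and 2000 UMIs, up to 10% mitochondrial), other totals, median-of-ratios scaling, cells with a *Cd3* UMI, other limits of fold, UMIs and thinning, and marker ranges, the last chosen after seeing the data. The scripts were tested on simulated data. Python 3.11.15, numpy 2.4.6, scipy 1.17.1, pandas 2.3.3 and matplotlib 3.10.9 were used.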

Additional observations from a re-analysis of the deposited data

How the results depend on the processing

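Over the alternatives tried, 48 of 59 member ratios in thymus, 40 of 48 in spleen and 48 of 60 in tumor stayed within their counting intervals. With only mature-range thymus and T-range tumor cells, chosen after seeing the data, the thymus median was 0.34 and the tumor median 0.02, thymic *Runx1* and *Themis* turned to −0.22 and −0.49 and tumor *Gata3* to −0.02, tumor *Pdcd1* to −0.27, no member was past 2-fold higher in tumor (0, against 3.94% of genes), the thinned CD8 shares were 44.6% and 57.7% in thymus and 47.9% and 60.6% in tumor, and 0 members were higher in spleen than thymus, 0 in thymus than spleen and 2 in spleen than tumor, against 1.91%, 2.06% and 35.0% of genes. At 1.5-fold, 3, 4 and 5 of 8 members were higher in thymus, spleen and tumor, against 10.7%, 17.7% and 8.82% of genes; with genes of at least 20 UMIs, 2 of 9 in thymus and 2 of 10 in spleen, against 8.75% and 9.18%. In cells with a *Cd3* UMI, 1 was higher in tumor and 2 in spleen over thymus, against 3.87% and 4.52% of genes. The strict filter gave −0.02 for splenic *Themis*, 1.59 for splenic *Pdcd1*, a *Cd8a* to *Cd8b1* ratio of 0.453 in the spleen library labelled Pdcd1fl/fl (81 cells), a share of 38.1% in the thymus library labelled Pdcd1 cKO and 0 members higher in thymus than spleen, against 6.94% of genes. Shares of cells with a CD8 UMI, in thymus, spleen and tumor, were 55.2% and 66.5%, 58.4% and 78.8%, and 75.4% and 91.3% not thinned, 13.5% and 21%, 26.1% and 41.4%, and 18.6% and 33.2% thinned to 500 UMIs with no other filter, and 6.56% and 14.6%, 16.7% and 29.5%, and 9.87% and 21.2% for at least 2 UMIs; the library labelled Pdcd1 cKO was higher in each. Scaled by the median of ratios, 3 members were higher in spleen than thymus and 0 the reverse, against 6.37% and 8.44% of genes. Over the libraries labelled Pdcd1fl/fl alone 4 members were higher in spleen than thymus, against 7.95% of genes, and over those labelled Pdcd1 cKO alone 3, against 9.62%. No value could be given for *Zbtb7b* in mature-range thymus or for *Cd4* and *Zbtb7b* in spleen under the strict filter. The causes were not tested.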

Other observations

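Each group is 1 library, so differences between mice cannot be told apart from genotype, and *Pdcd1* RNA went against the labels in all 3 whole-library comparisons and within the ranges of thymus and spleen, but not in tumor cells with T cell markers. Depth limits *Cd4* and *Zbtb7b*, whose ratios rest on few UMIs, and shares of cells in spleen. The marker ranges hold many cells near their limits in thymus and spleen. *Trdc*, the constant gene of the TCR δ chain, was at 174 and 142 CPM in thymus and in 56.7% and 60.3% of immature-range against 15.9% and 14.7% of mature-range cells; its part in the thymic CD8 shares was not tested.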
